A study of Homo sapiens with 26 samples.

Results

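The late response of TET2 wild-type TF-1 cells to the DNA hypomethylating drug 5-azacytidine (Aza) was measured in 4 RNA sequencing libraries, of 26 in the series. TF-1 is an established human erythroleukemia line that grows in response to GM-CSF, and A7 and C4 are 2 clones of it labelled TET2 +/+ (WT). Each clone was given 200 nM Aza in DMSO on 3 consecutive days, or DMSO alone on the same days, and RNA was taken 264 h after the first dose, in experimental batch 1. The 4 libraries are every WT library of that time and batch: Aza-treated A7 and C4, and DMSO-treated A7 and C4, each Aza library being paired with the DMSO library of its clone. For comparison, the same contrast was made at 72 h in the same clones (4 libraries) and at 264 h in 2 clones labelled TET2 -/- (KO, clones A12 and F4; 4 libraries of batch 1). Each library is 1 culture of 1 clone, and each pair is set against its own clone's level. These 2 pairs leave 1 residual degree of freedom, so the p-values lean mostly on spread shared across genes. They do not cover the spread between other clones, which may behave otherwise.

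Aza is a cytidine analogue that is built into nucleic acids, where it traps DNA methyltransferases, so that methylation is diluted as cells divide. A red cell precursor builds hemoglobin from alpha-like and beta-like globin chains and from heme, takes up iron through the transferrin receptor, and lays down a membrane skeleton of spectrin held to band 3. GATA1 and KLF1 are the transcription factors that drive these genes, and TF-1 cells carry them together with genes of other myeloid lineages, among them those of mast cells, basophils and eosinophils.

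The 4 libraries held 25819112 to 28248529 counts. Levels are given as CPM, counts per 1000000 of the TMM library size, and a pair of values always gives clone A7 before clone C4. On this scale 3 counts correspond to 0.104 to 0.115 CPM. Of the markers of the line, CD33, CD34, CSF2RB, KIT, TFRC and GATA1 were present in all 4 libraries, whereas CSF2RA and IL3RA were listed at 0 in each. Why these receptor genes were at 0 was not tested, and the zeros do not show that the cells lack them. Of the markers of other cells, CD3E, MS4A1, S100A8 and PF4 were at 0 in all 4, which allows up to 3 counts in a library. The megakaryocytic integrin ITGA2B was at 496 and 507 CPM with Aza, against 516 and 509 CPM with DMSO, and did not pass the test (adjusted p = 0.867). TET2 stood at 27.9 and 28.8 CPM with Aza, against 29.1 and 29.9 CPM with DMSO (adjusted p = 0.802). DNMT1, the maintenance methyltransferase, stood at 553 and 536 CPM with Aza, against 539.8 and 551 CPM with DMSO (adjusted p = 0.890). DNMT3A was at 20.8 and 24.2 CPM with Aza, against 18.1 and 23.3 CPM with DMSO (adjusted p = 0.322). DNMT3B was at 82.5 and 84.8 CPM with Aza, against 83.8 and 83.5 CPM with DMSO (adjusted p = 0.901). Mitochondrial genes took 6.26% to 6.42% of counts with Aza, against 6.33% to 7.05% with DMSO.

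Which genes still differed 264 h after the first dose was asked with edgeR's quasi-likelihood test, fitted to the 4 libraries with a term for the clone. Every log2 difference below is Aza minus DMSO from that fit, and adjusted p-values were computed by the Benjamini-Hochberg method over the 16268 genes tested, unless another comparison is named. Genes below 0.05 by this measure are the ones called. In all 1162 genes were called, 7.14% of those tested: 627 rose (3.85%) and 535 fell (3.29%). Most were small, with a median log2 difference of 0.32 among genes that rose and -0.25 among those that fell. Larger changes were mostly rises, 90 genes being at least 2-fold higher (0.553%) and 12 at least 2-fold lower (0.0738%). The count rests on the pairing by clone and on few libraries. Without the clone term edgeR called 0 genes (1096 with an unadjusted p under 0.05). With the clone term kept, DESeq2 called 219, and with all 25 libraries that passed quality control in 1 fit edgeR called 92. Leaving out libraries needed a fit that also held the WT libraries of 72 h, which with nothing left out called 737 genes. In it, leaving out 1 library left 217 (Aza A7), 525 (Aza C4), 288 (DMSO A7) and 232 (DMSO C4) genes called. The same fit called 198 genes without both A7 libraries and 370 without both C4 libraries. These 6 fits are the ones meant below by a library or clone being left out, and they are to be read against the same 8-library fit with nothing left out. With a clone left out, Aza and DMSO hold 1 library each at 264 h. Each gene's own spread then comes from the 72 h libraries alone. A call in such a fit therefore measures no spread between cultures at 264 h.

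**Figure D1:**
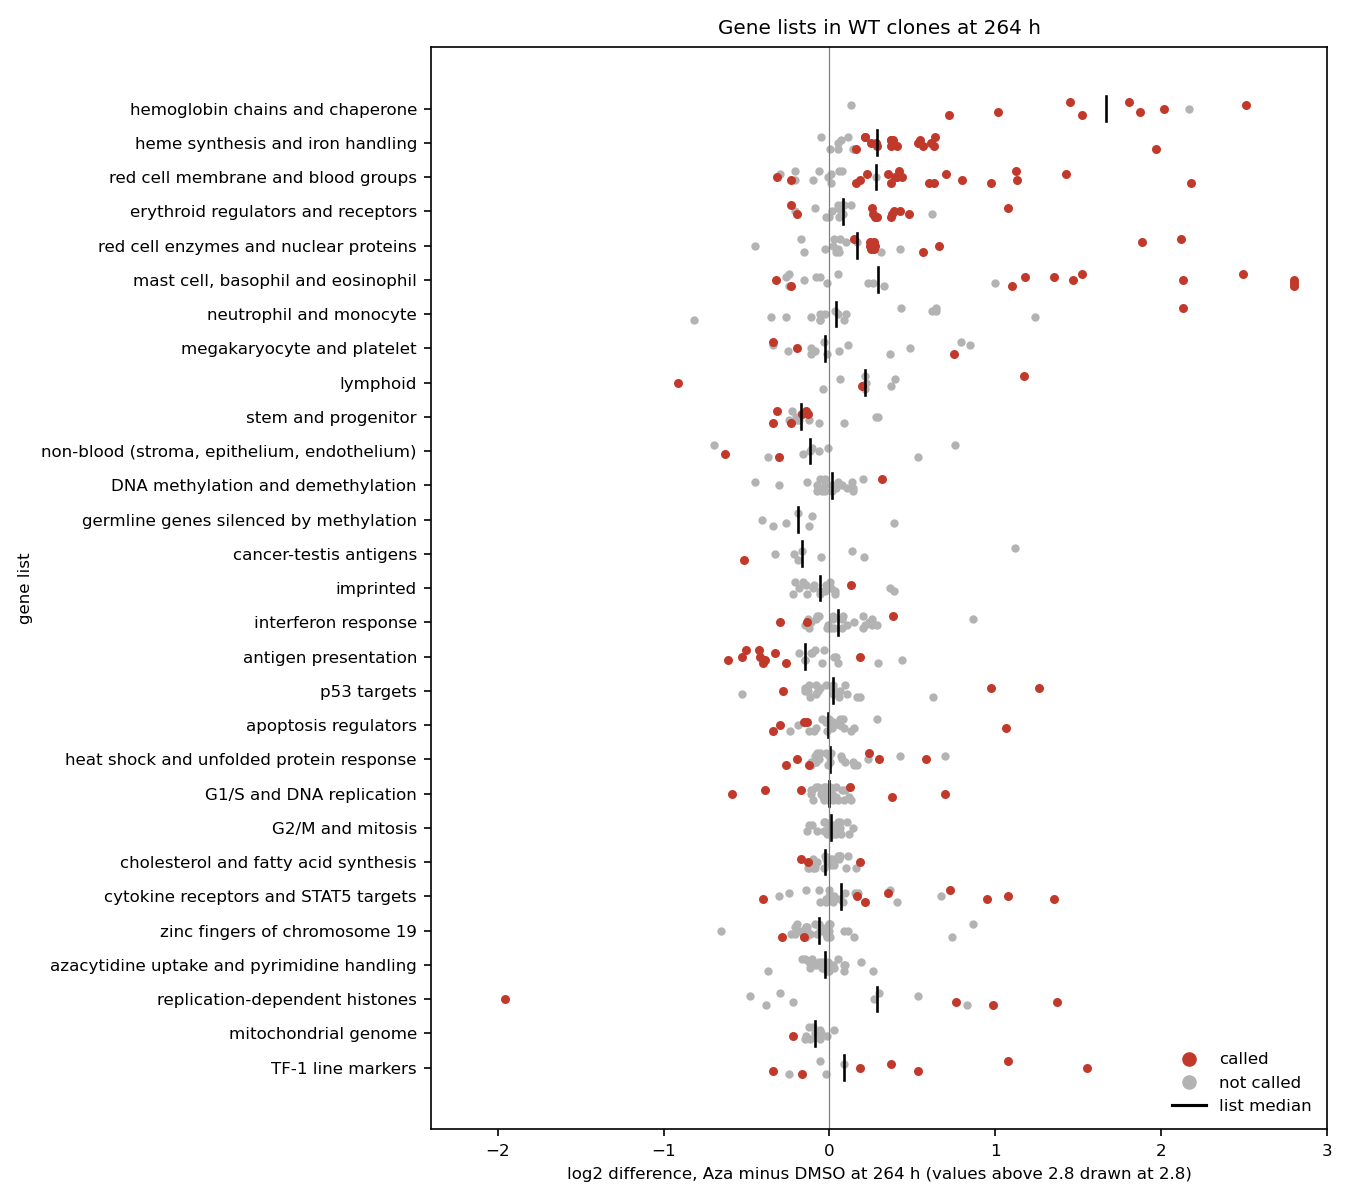
Log2 difference between Aza and DMSO at 264 h in WT clones (x axis) for the tested members of 29 gene lists (y axis), 1 point per gene, red where called and grey where not, with the list median as a black bar; CLC, EPX and PRG3 lie beyond the drawn range and stand at its right edge. The hemoglobin median stands at 1.67 while the median over all genes tested is 0.00, and the called members of the antigen presentation list lie below 0 except TAPBP.

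Promoter sequences are printed for 6 genes taken from 3 groups described next: the eosinophil genes CLC, PRG3 and CEBPE, the heme enzyme ALAS2, and the antigen presentation genes HLA-DMB and CD74. They are the 250 bases before the gene start in RefSeq on GRCh38.p14, which differs from the hg19 build of the counts, and they read 5′ to 3′ along the gene. Capitals mark CG dinucleotides, the sites at which human DNA is methylated.
CLC (chr19:39738030-39738279, minus strand): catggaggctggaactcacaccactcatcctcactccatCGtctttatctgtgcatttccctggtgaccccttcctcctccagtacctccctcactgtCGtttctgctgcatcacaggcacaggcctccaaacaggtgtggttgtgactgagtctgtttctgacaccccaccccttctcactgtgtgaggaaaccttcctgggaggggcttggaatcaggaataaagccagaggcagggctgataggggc
PRG3 (chr11:57381151-57381400, minus strand): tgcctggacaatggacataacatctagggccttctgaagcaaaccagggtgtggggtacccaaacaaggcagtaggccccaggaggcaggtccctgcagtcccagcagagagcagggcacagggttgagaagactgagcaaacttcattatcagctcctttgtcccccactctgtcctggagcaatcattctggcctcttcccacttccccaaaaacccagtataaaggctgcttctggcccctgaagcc
CEBPE (chr14:23119256-23119505, minus strand): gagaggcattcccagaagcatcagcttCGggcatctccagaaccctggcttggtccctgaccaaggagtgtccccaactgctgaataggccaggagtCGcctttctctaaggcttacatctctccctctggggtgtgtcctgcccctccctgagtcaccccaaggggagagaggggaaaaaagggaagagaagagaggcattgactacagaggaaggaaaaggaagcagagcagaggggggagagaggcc
ALAS2 (chrX:55030978-55031227, minus strand): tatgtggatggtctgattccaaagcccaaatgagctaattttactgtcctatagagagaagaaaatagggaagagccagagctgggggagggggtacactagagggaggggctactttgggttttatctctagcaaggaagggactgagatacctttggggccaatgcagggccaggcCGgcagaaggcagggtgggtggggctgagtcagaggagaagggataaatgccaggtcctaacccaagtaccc
HLA-DMB (chr6:32941029-32941278, minus strand): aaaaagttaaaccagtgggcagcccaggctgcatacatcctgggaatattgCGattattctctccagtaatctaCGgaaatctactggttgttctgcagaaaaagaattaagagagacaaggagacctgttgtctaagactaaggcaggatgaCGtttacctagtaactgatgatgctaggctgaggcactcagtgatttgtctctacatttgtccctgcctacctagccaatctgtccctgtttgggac
CD74 (chr5:150412911-150413160, minus strand): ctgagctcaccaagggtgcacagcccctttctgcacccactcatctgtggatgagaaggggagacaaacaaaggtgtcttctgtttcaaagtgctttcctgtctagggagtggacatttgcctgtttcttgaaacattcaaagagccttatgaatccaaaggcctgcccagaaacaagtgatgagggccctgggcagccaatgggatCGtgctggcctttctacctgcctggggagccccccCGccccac
These windows hold 2, 0, 2, 1, 3 and 2 CG dinucleotides in that order, whereas the median over the 15901 RefSeq starts of tested genes was 20. Windows with at most 4 CG dinucleotides made up 44.6% of the 83 starts of genes at least 2-fold higher, 18.6% of the 726 starts of all genes that rose, 21.4% of the 668 starts of genes that fell, and 13.3% of all starts of tested genes. Over all 35116 starts in the table, tested or not, that share was 34.3% and the median was 11. Starts of the same gene were counted separately. The 83 starts belong to 59 of the 90 genes at least 2-fold higher, and the 726 to 461 of the 627 that rose. Genes without a start there include EPX, HBB, HBE1, HBZ, HBG1, PRG2, SLC4A1, HLA-DRA and CIITA. The letters AGATAA, a motif that GATA factors bind, were searched on both strands and lie once in the CLC window and once in the ALAS2 window, and in 14.5% of windows of genes at least 2-fold higher, 7.71% of all genes that rose, 7.34% of genes that fell, 5.55% of tested genes and 9.17% of all 35116 windows in the table. DNA methylation was not measured in these libraries, and a match of letters is a description, not a binding site.

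Globin genes rose in both WT clones. Among those called the largest ratios were those of the embryonic chains and of the fetal chain HBG1. HBE1, the embryonic epsilon chain (ENSG00000213931.1, chromosome 11, 5289582 to 5526847, hg19), was at 12.0 and 10.2 CPM with Aza, against 1.42 and 2.50 CPM with DMSO (log2 2.51, SE 0.18, adjusted p = 5.38e-10). HBZ, the embryonic zeta chain (chromosome 16), was at 31.7 and 35.4 CPM with Aza, against 6.99 and 9.79 CPM with DMSO (log2 2.02, SE 0.09, adjusted p = 4.62e-14). HBG1, one of the fetal gamma chains (chromosome 11), was at 11.8 and 21.6 CPM with Aza, against 2.33 and 7.11 CPM with DMSO (log2 1.87, SE 0.13, adjusted p = 5.38e-10). In all 3 genes both Aza libraries stood above both DMSO libraries. HBB, the adult beta chain (ENSG00000244734.2, chromosome 11, 5246694 to 5250625), was at 164 and 112 CPM with Aza, against 44.6 and 34.8 CPM with DMSO (log2 1.81, SE 0.05, adjusted p = 1.62e-17). HBD, the minor adult delta chain, was at 24.1 and 17.0 CPM with Aza, against 7.21 and 7.14 CPM with DMSO (log2 1.52, SE 0.11, adjusted p = 5.38e-10). The adult alpha chains lie on chromosome 16. HBA2 was at 349.6 and 404 CPM with Aza, against 163 and 215 CPM with DMSO (log2 1.02, SE 0.04, adjusted p = 1.62e-14), and HBA1 at 65.6 and 88.1 CPM with Aza, against 41.5 and 52.5 CPM with DMSO (log2 0.72, SE 0.05, adjusted p = 5.23e-10). Within each clone, each of these globin genes was higher with Aza. AHSP, the chaperone of free alpha chains, was at 3.02 and 3.21 CPM with Aza, against 1.57 and 0.736 CPM with DMSO (log2 1.45, SE 0.26, adjusted p = 6.13e-04).

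HBG2, the second fetal gamma chain, was higher with Aza in both clones, yet this was not called. It was at 428 and 674 CPM with Aza, against 78.5 and 179.6 CPM with DMSO (log2 2.17, SE 0.21, adjusted p = 0.135), both Aza libraries lying above both DMSO libraries. It was called by DESeq2, without robust estimation, without the C4 libraries and in the 23-library fit, and in no other alternative (adjusted p over the alternatives 1.05e-142 to 0.678). HBG1 and HBG2 are near-identical copies, as are HBA1 and HBA2, so how their reads were divided is uncertain. The gene models of HBE1 (5289582 to 5526847) and HBG2 (5274420 to 5667019) also overlap on the same strand. HBQ1, the theta chain, was at 14.6 and 12.2 CPM with Aza, against 11.9 and 12.9 CPM with DMSO (log2 0.13, SE 0.10, adjusted p = 0.537), with overlapping groups. HBM, the mu chain, had too few counts to be tested: its 19 counts with Aza and 4 with DMSO give a ratio of 4.72 (95% exact interval 1.57 to 19.1, counting error only). Of the 10 hemoglobin list members tested, 8 rose (3.85% of all genes tested did), with a list median of 1.67 against 0.00 over all genes tested. Of the 8 calls, 5 were made in the 8-library fit with nothing left out, 4 to 7 with a library or clone left out, 4 in the fit of all 25 libraries and 7 in that fit without the 2 WT libraries taken before treatment. HBE1, HBG1, HBD and HBA1 were called in all 6 fits that left out a library or clone. HBB, HBZ and HBA2 were not called in the 8-library fit even with nothing left out (adjusted p = 0.0943, 0.184 and 0.137), nor with any one library left out. Without clone A7 the log2 difference was 1.70 for HBB and 1.86 for HBZ, and without clone C4 it was 1.88 and 2.18. AHSP lost its call without DMSO C4 or clone C4.

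The make-up of the beta-like chains was set out per kilobase of gene model, as a share of the summed level of the 5 genes. HBG2 took 52.7% and 69.1% of it in Aza-treated A7 and C4, against 44.1% and 65.0% in DMSO-treated A7 and C4. HBB took 34.8% and 19.8% with Aza, against 43.1% and 21.6% with DMSO, so that its share was lower with Aza in both clones although its level was higher. HBE1 took 3.24% and 2.29% with Aza, against 1.76% and 1.99% with DMSO. The clones differed more than the treatments did in the share of HBB, which was higher in A7 than in C4 under both treatments. The summed level was 401 and 481 CPM per kilobase with Aza, against 87.8 and 136 CPM per kilobase with DMSO.

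**Figure D2:**
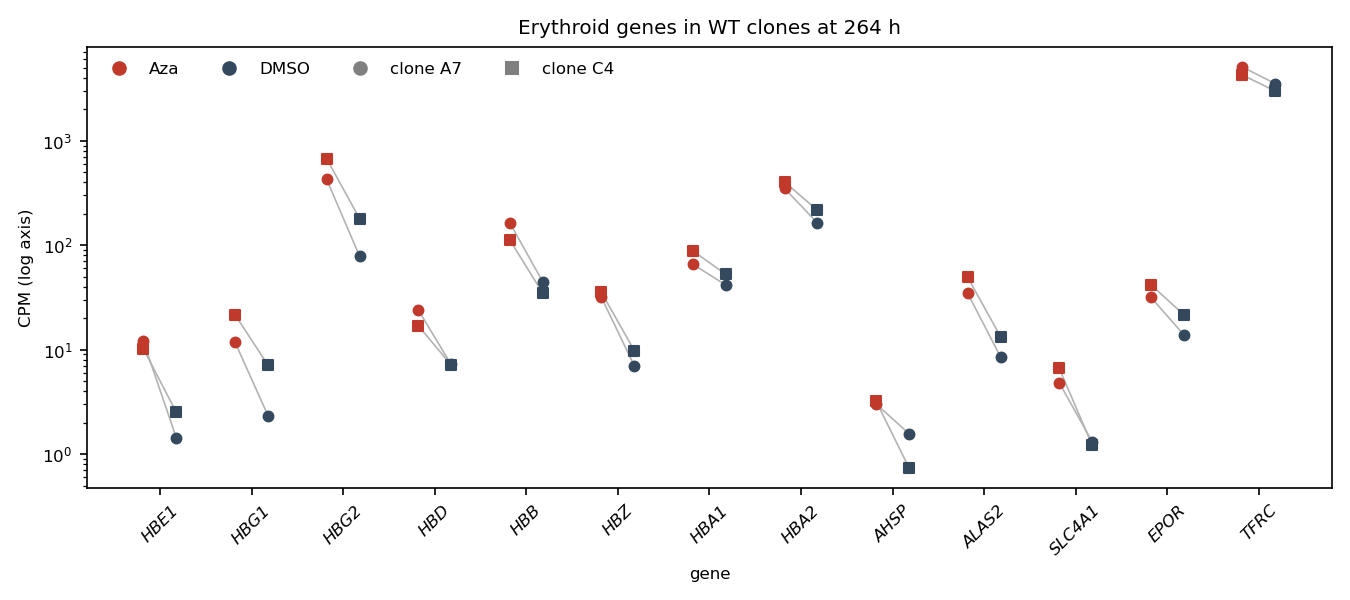
Level of 13 erythroid genes (x axis) in CPM on a log axis (y axis) at 264 h in WT clones, Aza in red at the left of each pair and DMSO in blue at the right, circles for clone A7 and squares for clone C4, a line joining the libraries of a clone. Every line falls towards DMSO, from TFRC at 5079 CPM in Aza-treated A7 down to AHSP at 0.736 CPM in DMSO-treated C4. The 13 genes were picked for drawing. Among erythroid genes not drawn, HBQ1 was lower with Aza in clone C4, and RHCE and TMCC2 fell.

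Heme synthesis and iron genes rose together with the globins. ALAS2, the erythroid enzyme of the first step of heme synthesis (chromosome X), was at 34.6 and 49.2 CPM with Aza, against 8.48 and 13.3 CPM with DMSO (log2 1.97, SE 0.07, adjusted p = 4.94e-15). Both Aza libraries lay above both DMSO libraries, though in the 8-library fit with nothing left out it was not called (adjusted p = 0.0560), nor without DMSO A7 or DMSO C4 (adjusted p over the alternatives 1.22e-138 to 0.436). ALAD, the next enzyme of the pathway, was at 46.1 and 66.1 CPM with Aza, against 30.6 and 42.5 CPM with DMSO (log2 0.63, SE 0.05, adjusted p = 2.07e-08). HMOX1, which breaks heme down, was at 13.1 and 12.6 CPM with Aza, against 8.45 and 8.32 CPM with DMSO (log2 0.64, SE 0.10, adjusted p = 2.14e-04). TFRC, the transferrin receptor, was at 5079 and 4264 CPM with Aza, against 3521 and 2987 CPM with DMSO (log2 0.54, SE 0.04, adjusted p = 4.27e-09). PPOX, FECH and CPOX, later enzymes of the pathway, rose by a log2 of 0.41, 0.28 and 0.16, and the ferritin chains FTH1 and FTL by 0.28 and 0.25. Of the 25 members tested, 18 rose, where 3.85% of all genes tested did. The others, among them UROD at a log2 of -0.05, were not called (list median 0.28). The 8-library fit kept 16 of the 18 calls with nothing left out and 9 to 15 with a library or clone left out, fewest without DMSO C4. ALAD and TFRC were called in each of these fits, and HMOX1 was not called without DMSO A7 or without clone A7.

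Among genes of the red cell membrane, SLC4A1, the anion exchanger band 3 (chromosome 17), was at 4.82 and 6.61 CPM with Aza, against 1.31 and 1.21 CPM with DMSO (log2 2.18, SE 0.20, adjusted p = 5.16e-08). SPTB, the beta chain of spectrin, was at 35.6 and 41.8 CPM with Aza, against 16.5 and 19.1 CPM with DMSO (log2 1.13, SE 0.07, adjusted p = 2.88e-11). Both were higher with Aza in both clones. ADD2, the beta chain of adducin, which caps the actin of the skeleton, was at 19.0 and 38.7 CPM with Aza, against 5.97 and 16.2 CPM with DMSO (log2 1.43, SE 0.09, adjusted p = 9.35e-11). Clone C4 stood above A7 for ADD2 under both treatments, and DMSO-treated C4 lay close to Aza-treated A7. DMTN, the actin-bundling protein dematin, was at 3.82 and 5.89 CPM with Aza, against 1.46 and 3.09 CPM with DMSO (log2 1.13, SE 0.18, adjusted p = 2.14e-04). ANK1, ankyrin, rose by a log2 of 0.41 and EPB42, protein 4.2, by 0.42, whereas the Rh blood group gene RHCE fell by 0.32 on the log2 scale (adjusted p = 3.50e-04). Where 3.85% of all genes tested rose and 3.29% fell, 18 of the 31 members tested rose and 2 fell, RHCE and TMCC2 (list median 0.28). Of these 20, 16 were called in the 8-library fit with nothing left out and 10 to 14 with a library or clone left out, fewest without Aza A7 or DMSO C4. SLC4A1, SPTB and DMTN were called in each of these fits, and ADD2 was not called without DMSO A7 or without DMSO C4.

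Regulators and receptors of the lineage had a list median of 0.08, with 10 of 27 tested higher and 2 lower. Over all genes tested 3.85% were higher and 3.29% lower. EPOR, the erythropoietin receptor, was at 31.8 and 41.8 CPM with Aza, against 13.9 and 21.6 CPM with DMSO (log2 1.08, SE 0.07, adjusted p = 2.95e-10). KLF1 was at 147 and 182 CPM with Aza, against 108 and 130.5 CPM with DMSO (log2 0.48, SE 0.04, adjusted p = 9.64e-09). GATA1 was at 115 and 106 CPM with Aza, against 84.1 and 87.7 CPM with DMSO (log2 0.37, SE 0.05, adjusted p = 6.53e-06). KLF3, a repressor related to KLF1, rose by 0.42 and GFI1B, a repressor needed for red cell and platelet formation, by 0.39. GATA2, the GATA factor of earlier progenitors, fell, at 457 and 489 CPM with Aza, against 526 and 599 CPM with DMSO (log2 -0.23, SE 0.04, adjusted p = 1.49e-04), and so did the megakaryocytic factor FLI1 (log2 -0.20, adjusted p = 0.00445). BCL11A, a repressor of fetal globin in adult red cells, was at a log2 of -0.20 and was not called (adjusted p = 0.348). Among red cell enzymes and nuclear proteins 11 of 25 rose (median 0.16), where 3.85% of all genes tested did. PKLR, the pyruvate kinase of red cells and liver, was at 7.21 and 9.48 CPM with Aza, against 1.24 and 2.69 CPM with DMSO (log2 2.12, SE 0.17, adjusted p = 9.31e-09). HEMGN, a nuclear protein of blood precursors, was at 6.49 and 6.50 CPM with Aza, against 1.82 and 1.73 CPM with DMSO (log2 1.88, SE 0.17, adjusted p = 5.7e-08). The carbonic anhydrase CA1 was at 418 and 476 CPM with Aza, against 301 and 311 CPM with DMSO (log2 0.56, SE 0.04, adjusted p = 3.77e-10), and SELENBP1, a selenium-binding protein, at 57.8 and 6.88 CPM with Aza, against 39.2 and 3.24 CPM with DMSO (log2 0.66, SE 0.08, adjusted p = 8.89e-06). For SELENBP1 the clones lay much further apart than the treatments. The 8-library fit kept 12 of the 12 regulator calls and 8 of the 11 enzyme calls with nothing left out. Leaving out a library or clone kept 4 to 9 of the regulator calls, fewest without Aza A7 or clone A7, and 3 to 8 of the enzyme calls, fewest without DMSO C4 or clone A7. EPOR, KLF1, KLF3 and CA1 were called in each of these fits. GATA1 was not called without Aza A7 or clone A7, and PKLR not without DMSO C4. GATA2 kept its call only without DMSO A7, and FLI1 only without Aza C4. Their log2 differences ran from -0.17 to -0.29 and from -0.15 to -0.26 over these fits. GFI1B lost its call without Aza A7, DMSO C4 or clone C4 (log2 0.24 to 0.55). HEMGN and SELENBP1 were not called in the 8-library fit with nothing left out (adjusted p = 0.347 and 0.413). HEMGN was also not called without Aza A7, DMSO A7 or DMSO C4, and SELENBP1 was called only without clone C4.

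The steepest rises of all were those of eosinophil granule genes. CLC, which encodes galectin-10, the protein of Charcot-Leyden crystals (ENSG00000105205.6, chromosome 19, 40221890 to 40228668), was at 20.6 and 2.71 CPM with Aza, against 0.0364 and 0.0368 CPM with DMSO, the DMSO values being 1 count in each library. The 666 counts with Aza and 2 with DMSO give a ratio of 331 (95% exact interval 91.2 to 2737, counting error only; adjusted p = 2.09e-14). EPX, eosinophil peroxidase (chromosome 17), was at 27.3 and 4.24 CPM with Aza, against 0.218 and 0.0736 CPM with DMSO, a ratio of 112 (56.4 to 259; log2 6.72, SE 0.24, adjusted p = 2.54e-15). PRG3, a homologue of major basic protein (chromosome 11), was at 9.16 and 2.41 CPM with Aza, against 0.291 and 0.0368 CPM with DMSO, a ratio of 36.1 (18.8 to 79.6; log2 5.12, SE 0.31, adjusted p = 3.21e-11). For these genes both Aza libraries lay far above both DMSO libraries, and Aza-treated A7 lay several times above Aza-treated C4. Without both A7 libraries CLC, EPX and PRG3 stayed called (log2 6.04, 5.77 and 5.87), and they were called in each of the other alternatives except the one with no clone term, in which no gene was called.

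PRG2, which encodes major basic protein itself, was at 2.36 and 0.535 CPM with Aza, against 0.109 and 0.368 CPM with DMSO (log2 2.50, SE 0.56, adjusted p = 0.00661). Its rise lay in clone A7, since C4 held 14 counts with Aza and 10 with DMSO, and it was not called without the A7 libraries (log2 0.54), nor in the 8-library fit with nothing left out (adjusted p = 0.0564), nor without Aza A7, Aza C4 or DMSO A7 (adjusted p over the alternatives 3.51e-08 to 0.931). CEBPE, a transcription factor of late granulocyte maturation (chromosome 14), was at 2.08 and 0.650 CPM with Aza, against 0.473 and 0.147 CPM with DMSO (log2 2.14, SE 0.41, adjusted p = 0.00138); leaving out Aza A7 or clone A7 ended its call (adjusted p over the alternatives 4.39e-05 to 0.228). IL5RA, the receptor for the eosinophil cytokine IL-5, was at 2.18 and 1.53 CPM with Aza, against 0.546 and 0.920 CPM with DMSO (log2 1.35, SE 0.32, adjusted p = 0.00969), a call lost without Aza A7, DMSO A7 or clone A7. Genes of mast cells and basophils moved both ways. HDC, the histamine-forming enzyme, rose by a log2 of 1.10, the tryptase TPSB2 by 1.47, IL1RL1, the receptor for IL-33, by 1.52 and ENPP3, a basophil surface enzyme, by 1.18. HDC was at 6.31 and 2.68 CPM with Aza, against 2.18 and 1.95 CPM with DMSO, so that its rise lay mostly in clone A7. FCER1A, which encodes the IgE-binding receptor chain, fell, at 48.6 and 48.0 CPM with Aza, against 61.7 and 60.2 CPM with DMSO (adjusted p = 1.66e-04). Unlike CLC, EPX and PRG3, the genes HDC, TPSB2, IL1RL1, ENPP3 and FCER1A were not called without clone A7. The mast cell protease CPA3 was at 1.56 and 1.49 CPM with Aza, against 2.11 and 1.55 CPM with DMSO, and was not called (adjusted p = 0.666). Of 24 members tested 10 rose and 2 fell, FCER1A and GATA2, with a median of 0.30, where 7.14% of all genes tested were called. In the 8-library fit 10 of these 12 were called with nothing left out and 3 to 10 with a library or clone left out, fewest without clone A7. RNASE2, an eosinophil ribonuclease that was too low to be tested, was at 0.728 and 0.153 CPM with Aza, against 0.0364 and 0 CPM with DMSO. In this bulk RNA, more cells of a kind and more RNA per cell cannot be told apart.

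**Figure D3:**
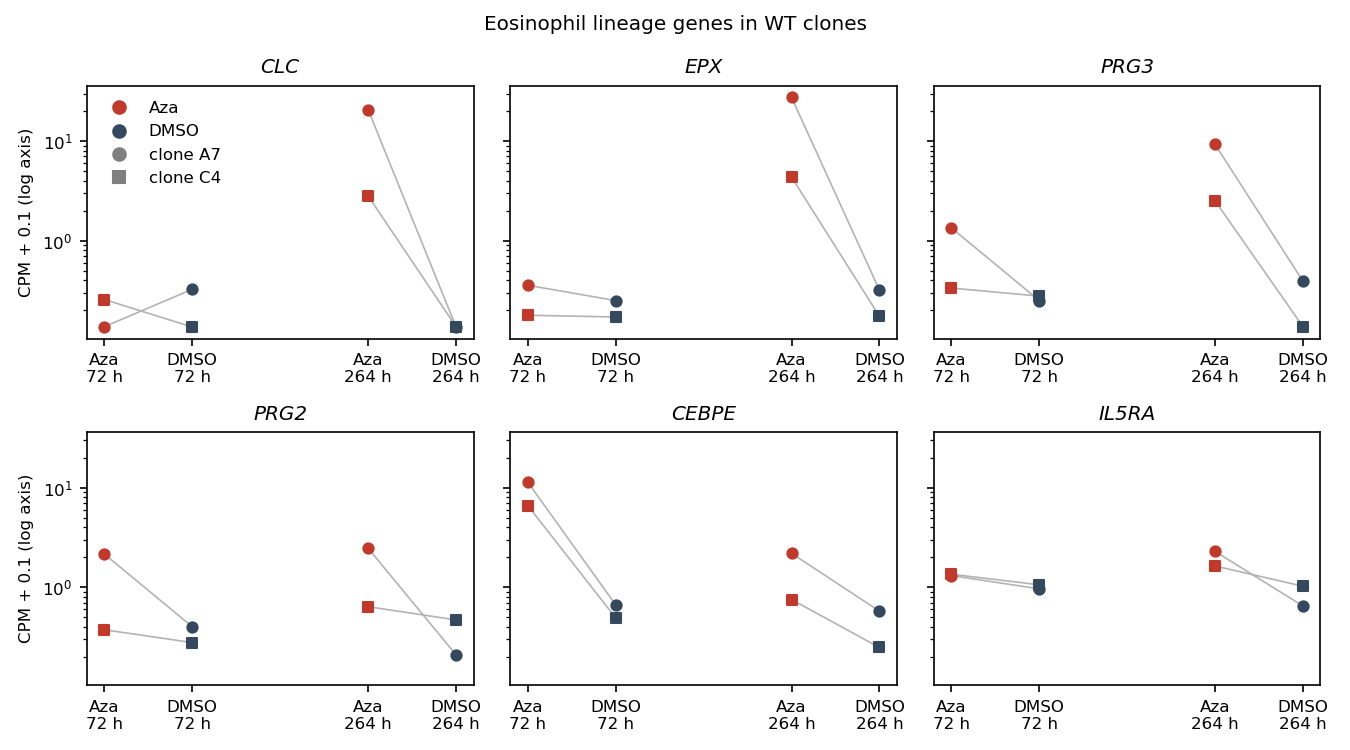
Level of 6 genes of the eosinophil lineage in WT clones as CPM plus 0.1 on a log axis (y axis), with Aza in red and DMSO in blue at 72 h and 264 h (x axis), circles for clone A7, squares for clone C4, and a line joining the libraries of a clone. CLC and EPX stand at 20.6 and 27.3 CPM in Aza-treated A7 at 264 h and no higher than 0.224 and 0.256 CPM in any library of 72 h, whereas CEBPE is highest with Aza at 72 h.

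Of the 18 neutrophil and monocyte genes tested, CEBPE alone was called, which is near the share of 7.14% over all genes. LYZ was at 40.8 and 48.8 CPM with Aza, against 37.0 and 50.8 CPM with DMSO. MPO was at 0.798 and 0.918 CPM with Aza, against 1.97 and 1.10 CPM with DMSO, and S100A8 was at 0 in all 4 libraries. The summed level of the list was 514 and 495 CPM with Aza, against 526 and 501 CPM with DMSO. Its member of highest CPM, the shared cytokine receptor chain CSF2RB, was at 239.9 and 199 CPM with Aza, against 251 and 209 CPM with DMSO (adjusted p = 0.460). Among 16 megakaryocyte and platelet genes tested, LTBP1, which binds latent TGF-beta, rose (log2 0.75, SE 0.16, adjusted p = 0.00348) and the collagen receptor GP6 and FLI1 fell (GP6 log2 -0.34, adjusted p = 0.00270). Among 10 lymphoid genes tested, IL2RB rose (log2 1.18, SE 0.33, adjusted p = 0.0295), CD4 rose (log2 0.20, adjusted p = 0.00368) and ZAP70, the kinase of the T cell receptor, fell. Of 11 genes of stroma, epithelium and endothelium tested, COL6A1 and KDR fell (log2 -0.63 and -0.30, adjusted p = 0.0317 and 0.0392), and the one of highest CPM, the endothelial receptor TIE1, was at 330.2 and 293 CPM with Aza, against 346 and 313 CPM with DMSO (adjusted p = 0.336). The 8-library fit made 3 of the 3 megakaryocyte, 2 of the 3 lymphoid and 1 of the 2 non-blood calls with nothing left out, and 0 to 2, 0 to 3 and 0 to 1 of them in that order with a library or clone left out.

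In the antigen presentation list, 9 of 23 genes tested fell, where 3.29% of all genes tested did. HLA-DRA, the nearly invariant alpha chain of HLA-DR (chromosome 6), was at 394 and 121 CPM with Aza, against 549 and 178 CPM with DMSO (log2 -0.50, SE 0.04, adjusted p = 1.61e-09). HLA-DMB, which helps to load peptides, was at 6.55 and 2.03 CPM with Aza, against 9.79 and 3.39 CPM with DMSO (log2 -0.61, SE 0.15, adjusted p = 0.00927). HLA-DPB1, the beta chain of HLA-DP, was at 32.1 and 8.30 CPM with Aza, against 44.1 and 13.8 CPM with DMSO (log2 -0.53, SE 0.08, adjusted p = 5.61e-05). In these 3 genes A7 stood above C4 under both treatments, and within each clone Aza was the lower. HLA-DQB1 fell by 0.42 on the log2 scale, and CIITA, the master activator of class II genes, by 0.42 (adjusted p = 9.34e-06). The 9 that fell were all of the class II pathway, and TAPBP, which serves class I, rose (log2 0.19), with a list median of -0.14. B2M, the light chain of class I, was at a log2 of -0.03 and was not called (adjusted p = 0.695). Reads of HLA genes vary with the alleles a line carries, which the counting did not consider. The 8-library fit kept 9 of the 10 calls with nothing left out and 3 to 8 with a library or clone left out, fewest without Aza A7. HLA-DRA and CD74 were called in each of these fits, HLA-DPB1 in all but that without Aza A7, and HLA-DMB only without Aza C4. With all 25 libraries edgeR called 0 of the list, and with the 4 libraries DESeq2 called 6.

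CD34, the surface marker of blood progenitors, was at 250.3 and 214 CPM with Aza, against 314 and 281 CPM with DMSO (log2 -0.34, SE 0.04, adjusted p = 5.93e-07). ERG, a transcription factor of stem cells, was at 90.1 and 106 CPM with Aza, against 117 and 129 CPM with DMSO (log2 -0.32, SE 0.04, adjusted p = 1.84e-05). MLLT3 was at 78.0 and 81.9 CPM with Aza, against 92.0 and 89.2 CPM with DMSO (log2 -0.17, adjusted p = 0.0296). In CD34 and ERG both Aza libraries lay below both DMSO libraries. Of 17 stem and progenitor genes tested 6 fell, these with GATA2, MSI2 and EGFL7 (3.29% of all genes tested fell). The rest of the list were not called (median -0.17). In the 8-library fit 3 of the 6 were called with nothing left out and 0 to 3 with a library or clone left out, fewest without DMSO C4, which ended the calls of CD34 and ERG. ERG also lost its call without Aza A7 or clone A7.

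Outside these lists, the 12 largest rises held CTSE, the protease cathepsin E, at 1.80 and 2.94 CPM with Aza, against 0.182 and 0.295 CPM with DMSO (log2 3.31, SE 0.36, adjusted p = 9.13e-07). SLC6A19, a transporter of neutral amino acids, was at 3.33 and 3.79 CPM with Aza, against 0.255 and 0.884 CPM with DMSO (log2 2.67, SE 0.30, adjusted p = 1.04e-06). ESPN, the actin-bundling protein espin, was at 14.1 and 20.3 CPM with Aza, against 3.13 and 5.49 CPM with DMSO (log2 2.02, SE 0.12, adjusted p = 1.35e-11), and UCA1, a long non-coding RNA, at 1.11 and 0.918 CPM with Aza, against 0.182 and 0.221 CPM with DMSO (log2 2.32, SE 0.48, adjusted p = 0.00293). CTSE, SLC6A19 and ESPN were called with any library or clone left out, and UCA1 was not called without Aza A7, DMSO A7 or clone A7. The 12 largest falls were smaller and mostly of genes near 1 CPM. DIO2, the type 2 deiodinase that activates thyroid hormone, was an exception, at 11.8 and 38.7 CPM with Aza, against 29.8 and 95.6 CPM with DMSO (log2 -1.30, SE 0.06, adjusted p = 1.22e-13). Aza-treated C4 lay above DMSO-treated A7, so the groups overlapped while each clone was lower with Aza. It was not called in the 8-library fit with nothing left out (adjusted p = 0.0962) or without any one library. Its log2 difference was -1.30 without clone A7 and -1.34 without clone C4. AFF3, a nuclear factor of early B cells, was at 7.01 and 2.37 CPM with Aza, against 16.1 and 5.85 CPM with DMSO (log2 -1.22, SE 0.13, adjusted p = 3.86e-07), and FLVCR2, a membrane transporter, at 5.38 and 3.40 CPM with Aza, against 11.8 and 7.33 CPM with DMSO (log2 -1.11, SE 0.13, adjusted p = 2.35e-06), and both were called with any library or clone left out. TMEM100 was at 0.486 and 0.229 CPM with Aza, against 1.24 and 1.07 CPM with DMSO (log2 -1.66, SE 0.42, adjusted p = 0.0131). SLIT3, a secreted guidance ligand, was at 0.208 and 0.535 CPM with Aza, against 1.02 and 1.10 CPM with DMSO (log2 -1.53, SE 0.43, adjusted p = 0.0308), and lost its call in all 6 of those fits, while TMEM100 kept it only without Aza A7 (adjusted p = 0.0405), with log2 differences of -1.09 to -2.44 over the 6. CNIH3, a partner of glutamate receptors, GPR137C, BMX, a kinase of the Tec family, PHLDB2, the ephrin receptor EPHA5, ZAP70 and GPX8 made up the rest, with log2 differences of -1.48, -1.32, -1.11, -1.07, -1.03, -0.92 and -0.90. GPR137C and PHLDB2 were not called in the 8-library fit with nothing left out. GPR137C and BMX lost their calls in all 6 fits, and PHLDB2 kept its call only without Aza C4 or clone C4 (log2 -0.18 to -1.71). CNIH3 lost its call without Aza C4, DMSO C4 or clone C4 (log2 -0.71 to -2.31), EPHA5 and GPX8 without Aza A7, DMSO C4 or clone A7, and ZAP70 without Aza A7, DMSO A7 or clone A7.

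Lists of the drug's own pathway and of cell division are read against the 7.14% of all genes called. In the list of DNA methylation and demethylation genes the cytidine deaminase APOBEC3B was the 1 called of 23 tested (log2 0.32, adjusted p = 0.0277). No germline gene silenced by methylation was called of 7 tested (edgeR, 0 with an unadjusted p under 0.05, and 0 by DESeq2), and the other 26 were too low to test. None of 24 genes of pyrimidine handling was called (edgeR, 5 with an unadjusted p under 0.05, 0 by DESeq2), and none of 29 genes of G2/M (edgeR, likewise 5, and 0 by DESeq2). In the G1/S list 3 of 35 genes tested rose and 3 fell. CCND1 fell (log2 -0.59, SE 0.07, adjusted p = 1.06e-06) and CCND2 fell (log2 -0.39), whereas E2F2 and the inhibitor CDKN2B rose (log2 0.38 and 0.70). Of cancer-testis antigens MAGEC1 fell (log2 -0.51, SE 0.09, adjusted p = 4.52e-04; not called in the 8-library fit with nothing left out, adjusted p = 0.619, and called only without clone C4 among the 6), with clone A7 at 23.7 CPM with Aza against 34.0 CPM with DMSO, and C4 at 3.82 CPM against 5.63 CPM.

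Lists of stress, cytokine and other responses are likewise set beside the 7.14% of all genes called. Among p53 targets, the antiproliferative gene BTG2 was at 4.40 and 5.35 CPM with Aza, against 1.49 and 2.65 CPM with DMSO (log2 1.26, SE 0.19, adjusted p = 6.68e-05) and TP53INP1, a stress-induced nuclear protein, at 27.4 and 19.8 CPM with Aza, against 13.4 and 10.9 CPM with DMSO (log2 0.97, SE 0.08, adjusted p = 1.85e-08). FDXR, a mitochondrial reductase, fell (log2 -0.28), and the rest of the 25 p53 targets tested were not called. Among 26 apoptosis regulators BIRC3 rose (log2 1.07, adjusted p = 0.00781) and 4 fell, with BCL2 at 22.5 and 18.1 CPM with Aza, against 26.9 and 24.9 CPM with DMSO (log2 -0.34, adjusted p = 0.00491). BCL2L2, a related survival factor, was at a log2 of -0.30. In the list of heat shock and the unfolded protein response 3 of 28 rose and 3 fell. DDIT4, an inhibitor of mTORC1 signalling, changed most (log2 0.59, SE 0.08, adjusted p = 1.06e-05), and ASNS and PPP1R15A rose (log2 0.30 and 0.24) while SDF2L1 fell (log2 -0.26). Of 30 interferon response genes, IFIH1 rose (log2 0.39) and IFI44 and BST2 fell (log2 -0.30 and -0.14). Among cytokine receptors and STAT5 targets 7 of 28 rose, with EGR1 at a log2 of 0.95 and ID2, an inhibitor of DNA-binding factors, at 0.73, and SOCS3 fell (log2 -0.40). Of the 12 replication-dependent histone genes tested, H2BC11, H2BC12 and H1-2 rose (log2 1.37, 0.99 and 0.76) and H1-4 fell (log2 -1.96, adjusted p = 0.0387, at 0.139 and 0.191 CPM with Aza, against 0.837 and 0.479 CPM with DMSO). SREBF1 rose and SCD fell among 31 lipid synthesis genes (log2 0.18 and -0.13), and MEG3 rose among 19 imprinted genes (0.13). ZNF43 and ZNF100 fell among 35 zinc fingers of chromosome 19 (-0.28 and -0.15), and MT-ATP8 fell among 13 mitochondrial genes (-0.22). Of the 11 TF-1 markers tested 5 rose and 2 fell. CD36, a fatty acid transporter of early red cells, changed most, at 48.2 and 65.1 CPM with Aza, against 14.2 and 25.3 CPM with DMSO (log2 1.55, SE 0.07, adjusted p = 2.21e-13), though it was not called in the 8-library fit with nothing left out (adjusted p = 0.0974), nor without either DMSO library. Of the genes of these further lists, CCND1, BTG2, TP53INP1, DDIT4, ID2 and H1-2 were called with any library or clone left out, and the others lost their call in at least 1 of those fits, except SOCS3, which was not examined there.

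The response at 264 h was set against that at 72 h in the same clones, when 5135 of 16321 genes were called (31.5%; 16.1% rose and 15.4% fell). Of the genes that rose at 264 h, 296 had also risen at 72 h, which is 47.2% of the 627 rises of 264 h and 11.3% of the 2620 rises of 72 h, and 76 had fallen. Of the genes that fell, 219 had fallen at 72 h (40.9% of the 535 and 8.71% of the 2515), and 80 had risen. The genes that rose at 72 h had a median log2 difference of 0.04 at 264 h and 0.42 at 72 h, and those that fell had -0.02 at 264 h and -0.39 at 72 h. The difference between the times was tested as an interaction over the 8 WT libraries, which called 3033 of 17018 genes (17.8%), 1568 with the higher Aza effect at 264 h (9.21%) and 1465 with the lower (8.61%). Of the 627 genes that rose at 264 h, 189 had a larger effect at 264 h than at 72 h by this test and 68 a smaller one. Of the 535 that fell, 158 had a lower Aza effect at 264 h than at 72 h by this test and 69 a higher one. These counts hold whatever the direction at 72 h.

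**Figure D4:**
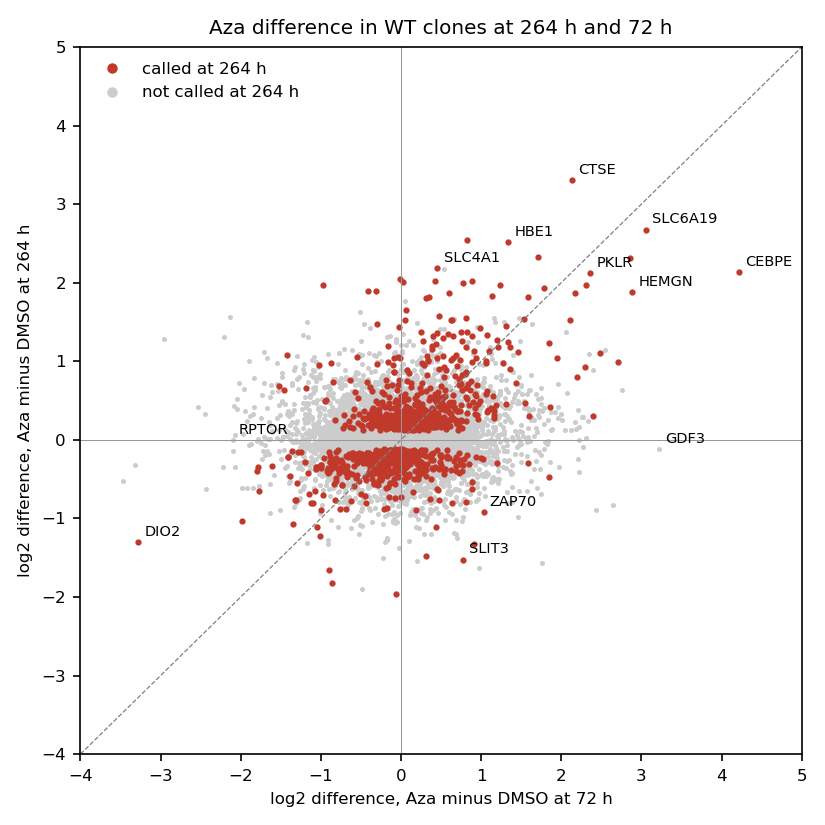
Log2 difference between Aza and DMSO in WT clones at 72 h (x axis) and at 264 h (y axis) for genes tested at both times, red where called at 264 h and grey where not, with the line of equal differences dashed. CEBPE lies at 4.21 at 72 h and 2.14 at 264 h, DIO2 at -3.28 and -1.30, and RPTOR, at -2.10 at 72 h, lies at -0.00 at 264 h.

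Within the erythroid group some genes had the larger effect at 264 h and others at 72 h. For the epsilon-globin gene HBE1 the Aza effect was larger at 264 h than at 72 h by a log2 of 1.18, SE 0.33, adjusted p = 0.0111, for HBG1 by 1.33, SE 0.27, adjusted p = 0.00242 and for HBD by 1.46, SE 0.19, adjusted p = 2.01e-06. HBD was at 5.22 and 5.33 CPM with Aza at 72 h, against 5.38 and 4.92 CPM with DMSO, so that its groups overlapped then and separated later. SLC4A1 also had the larger effect at 264 h (interaction 1.73, SE 0.35, adjusted p = 5.06e-04). KLF1 and GFI1B had the smaller one (interaction -0.42 and -0.77, adjusted p = 1.80e-04 and 3.18e-04). For HBB the interaction was 1.51, SE 0.42, adjusted p = 0.121, and for ALAS2 0.79, SE 0.41, adjusted p = 0.322, neither of which was called. At 72 h 5 of 10 hemoglobin genes tested rose (16.1% of all genes did), with a median of 0.43, and 4 of the list had the larger effect at 264 h by the interaction (9.21% of all genes).

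CLC was at 0.0365 and 0.156 CPM with Aza at 72 h, against 0.224 and 0.0354 CPM with DMSO, too low to be tested then. EPX was at 0.256 and 0.0779 CPM with Aza, against 0.150 and 0.0708 CPM with DMSO. Their interactions, 8.55, SE 1.48, adjusted p = 2.31e-04 and 6.12, SE 1.07, adjusted p = 9.86e-05, rest on these near-zero values. CEBPE went the other way, at 11.2 and 6.46 CPM with Aza at 72 h, against 0.561 and 0.389 CPM with DMSO (interaction -2.11, SE 0.56, adjusted p = 0.00757). Of the largest changes of 72 h, several were not called at 264 h. They included GDF3, a ligand of the TGF-beta family, at 1.97 and 5.26 CPM with Aza at 72 h, against 0.150 and 0.637 CPM with DMSO, and at 0.382 and 1.03 CPM with Aza, against 0.619 and 0.884 CPM with DMSO at 264 h. RPTOR, the raptor subunit of mTORC1, was at 13.7 and 12.8 CPM with Aza at 72 h, against 53.8 and 61.3 CPM with DMSO, and at 66.6 and 65.5 CPM with Aza, against 64.5 and 69.3 CPM with DMSO at 264 h (adjusted p = 0.995). TAFA3 had a log2 difference of 3.75 at 72 h and was too low to test at 264 h, and SLITRK6 and ADAMTS1, at -2.22 and -2.43 at 72 h, were at -0.35 and -0.63 at 264 h and not called. DIO2 and SLC6A19, also among the largest changes of 72 h, kept their direction at 264 h.

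Whether the late response differed between the TET2 genotypes was tested as the Aza effect in WT minus that in KO at 264 h, over 8 libraries of batch 1. The WT cells are clones A7 and C4 and the KO cells clones A12 and F4. An effect of TET2 therefore cannot be told apart from other differences between these clones. The interaction called 10 of 17175 genes (0.0582%), 4 with the higher effect in WT (0.0233%) and 6 with the lower (0.0349%), and 1491 had an unadjusted p under 0.05. DESeq2 called 3, and with 1 WT library left out edgeR called 1 without Aza A7, 0 without Aza C4, 1 without DMSO A7 and 0 without DMSO C4. CAPRIN2, an RNA-binding protein, had log2 ratios of 0.85 and 1.11 in WT clones A7 and C4, against 0.04 and 0.19 in KO clones A12 and F4 (interaction 0.87, SE 0.10, adjusted p = 1.93e-04). KEL, the Kell blood group antigen, had 0.79 and 0.59 in WT clones A7 and C4, against 0.16 and 0.14 in KO clones A12 and F4 (interaction 0.53, SE 0.09, adjusted p = 0.0164). COL18A1, a basement membrane collagen, had 0.29 and 0.47 in WT clones A7 and C4, against -0.15 and 0.02 in KO clones A12 and F4 (interaction 0.44, SE 0.08, adjusted p = 0.0164). In each of these 3 genes both WT clones stood above both KO clones. Separation of the clones was a condition for naming any gene from this interaction, in either direction, so it adds no evidence.

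Of the genes with the lower effect in WT, DIO2 had log2 ratios of -1.34 and -1.30 in WT clones A7 and C4, against -0.67 and -0.83 in KO clones A12 and F4 (interaction -0.57, SE 0.08, adjusted p = 0.00201), and CD74, the invariant chain that escorts MHC class II, had -0.33 and -0.36 in WT clones A7 and C4, against 0.28 and -0.02 in KO clones A12 and F4 (interaction -0.43, SE 0.08, adjusted p = 0.0340). RPL41, a ribosomal protein gene, had -0.25 and -0.19 in WT clones A7 and C4, against 0.31 and 0.10 in KO clones A12 and F4 (interaction -0.42, SE 0.07, adjusted p = 0.00563). RPL26, another, had -0.13 and -0.19 in WT clones A7 and C4, against 0.25 and 0.19 in KO clones A12 and F4 (interaction -0.38, SE 0.07, adjusted p = 0.0443). Both have processed copies in the genome that could share their reads. Globin genes did not pass this test: the interaction was -0.07, SE 0.22, adjusted p = 0.973 for HBB, -0.25, SE 0.09, adjusted p = 0.388 for HBA2 and -1.55, SE 0.44, adjusted p = 0.289 for HBE1. Of the 10 hemoglobin genes tested, 0 were called by the interaction. Only 1 had an interaction estimate above 0 (median interaction -0.10, against -0.00 over all genes tested). The lack of calls does not show that the effects were equal. In KO cells alone 7 of 10 hemoglobin genes tested rose (0.614% of all genes did), with a median of 1.74. HBB stood at 27.3 and 41.6 CPM in Aza-treated KO clones A12 and F4, against 5.27 and 13.9 CPM in DMSO-treated ones, so that under each treatment both WT clones lay above both KO clones. CLC was at 35.0 and 8.38 CPM in Aza-treated KO clones, against 0.151 and 0.0865 CPM in DMSO-treated ones (interaction 0.77, SE 0.98, adjusted p = 0.894). Of the 627 genes that rose in WT, 81 also rose in KO (12.9% of the WT rises and 80.2% of the 101 KO rises), and 26 fell in both, where 0.231% of all genes fell in KO (4.86% of the WT falls and 68.4% of the 38 KO falls).

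**Figure D5:**
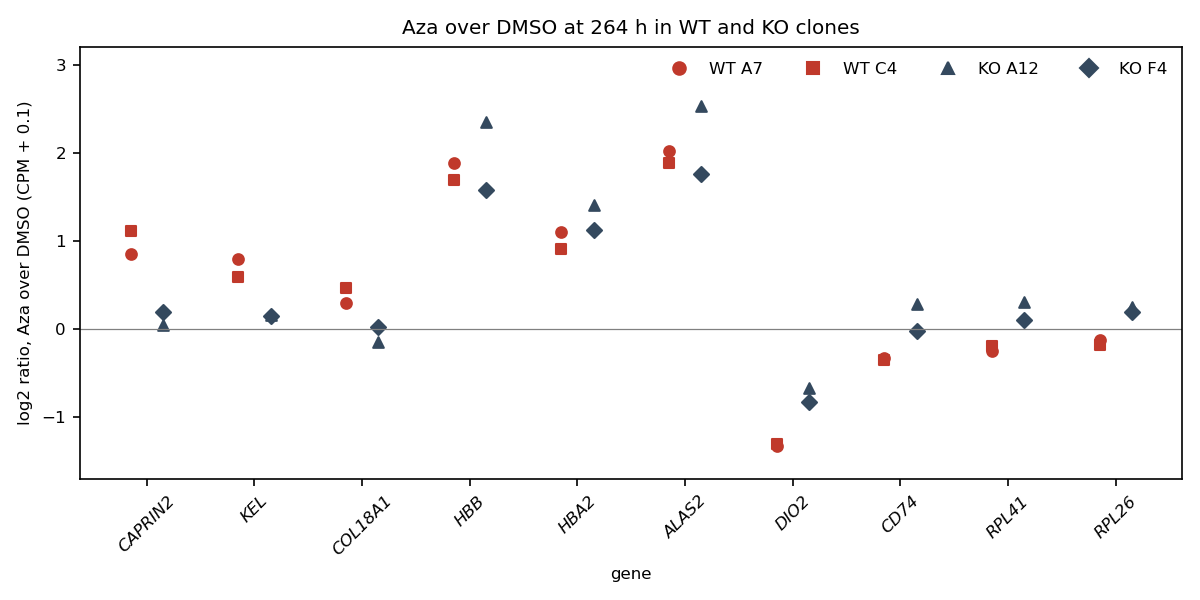
Log2 ratio of Aza over DMSO at 264 h on CPM plus 0.1 (y axis) for 10 genes (x axis), WT clones A7 and C4 in red at the left and KO clones A12 and F4 in blue at the right of each pair. WT and KO points are apart for CAPRIN2, KEL, COL18A1, DIO2, CD74, RPL41 and RPL26, which the interaction called, while they overlap for HBB and ALAS2 and adjoin for HBA2, none of which it called. Being apart was a condition for choosing the called genes but not the others.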

How the data were processed

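Gene expression was measured by paired-end RNA sequencing of polyadenylated RNA (TruSeq stranded mRNA, NovaSeq, per the labels' protocols). The deposited values are raw read counts, whole numbers for each of 57773 genes. They were made by the authors with featureCounts 1.6.2 from exons of the GENCODE release 19 annotation, per the file headers, in paired-end mode and with no strand option, so overlapping and antisense genes cannot be told apart. The other tools named are STAR 2.6.1d, cutadapt, FastQC and DESeq2, and the build is hg19 (GRCh37), per the submitters' processing notes. Symbols were matched for 51996 IDs from a name table and 342 from GENCODE release 29.

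From these counts, TMM library sizes, CPM over 25 libraries that passed quality control, filterByExpr and robust quasi-likelihood tests (edgeR 4.0.16, R 4.3.3) were computed. The standard error is the log2 difference divided by the square root of the F statistic. Ratios per clone add 0.1 CPM. The main fit holds 4 libraries with a clone term, which leaves 1 residual degree of freedom, so that its p-values lean on the spread shared across genes. Interactions were fitted to 8 libraries each. The procedure was tested on simulated data.

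Clone labels pair the libraries because they name the same cells. Across 3000 variable genes, same-clone libraries deviated from their group means together (correlation 0.32 to 0.37 over the WT groups of 72 h and 264 h). Libraries of one group differed by more than counting noise in every group checked (ratio of chi-square to its degrees of freedom 12.3 to 19.2).

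Genes are described through 29 lists with 795 of 813 memberships matched. The comparison, the lists and the markers were chosen with earlier results of these data known, so counts over a list describe it and are no independent test. Named genes were the 12 largest rises and 12 largest falls among called genes with a symbol, at least 1 CPM and the same direction in both clones, and up to 4 called members of each list by size. Added to these were the 4 largest called interactions each way, the 4 largest changes of 72 h each way, TET2, DNMT1, DNMT3A, DNMT3B, GATA1 and the hemoglobin genes, and the gene of highest mean CPM in each list of other cells. A gene named from the genotype interaction also had to have both WT clones on the same side of both KO clones. Some genes that this rule names are not reported here. Other members named beside them were chosen after their values were seen. Alternatives covered DESeq2 1.42.0, RLE scaling, other filters, no clone term, no robust estimation, larger fits and leaving out libraries or clones; a fit of 23 libraries was added after seeing the data. Intervals and the floor of 3 counts cover counting error only.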

Additional observations from a re-analysis of the deposited data

Results flagged for a closer look

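The results below had an Aza effect that differed between the times or between the genotypes by edgeR's test of the difference itself (adjusted p under 0.05), and are given as log2 differences of the effects with no explanation weighed.

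Between 264 h and 72 h in WT clones, the eosinophil granule genes CLC, EPX and PRG3 had the larger effect at 264 h, by 8.55, 6.12 and 3.01, as did the tryptase gene TPSB2 by 1.76. Of these, CLC, EPX and PRG3 were below 2 CPM in every library of 72 h. The globin genes HBD, HBG1, HBE1 and HBA1 had the larger effect at 264 h by 1.46, 1.33, 1.18 and 0.45. AC119396.1, a gene known by its clone name, differed by 2.53, at 1.98 and 1.26 CPM with Aza, against 0.910 and 0.626 CPM with DMSO at 264 h. FCER1A and HPGDS, which makes prostaglandin D2 in mast cells, differed by 0.67 and 0.58, both having been lower with Aza at 72 h (log2 -0.99 and -0.64) by more than at 264 h.

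The effect was smaller at 264 h for TAFA3, GDF3, INSRR and TEX14, by -4.42, -3.32, -3.32 and -2.63, all of them higher with Aza at 72 h and not called at 264 h or, for TAFA3, too low to test. It was also smaller for CEBPE, HDC and FCER1G, the signalling chain of IgE and IgG receptors, by -2.11, -1.37 and -0.43.

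Between WT and KO clones at 264 h, CAPRIN2, KEL and COL18A1 had the higher effect in WT, by 0.87, 0.53 and 0.44. DIO2, CD74, RPL41 and RPL26 had the lower effect in WT, by -0.57, -0.43, -0.42 and -0.38. Of these, RPL26 was not called in WT alone (adjusted p = 0.0705).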

How the results depend on the processing

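The main count of 1162 (627 higher and 535 lower) was 219 (142 higher and 77 lower) with DESeq2, 737 (399 higher and 338 lower) when the WT libraries of 72 h shared the fit, 92 (67 higher and 25 lower) with all 25 libraries and, in a fit chosen after seeing the data, 355 (237 higher and 118 lower) without the WT libraries taken before treatment. It ran over 217 to 525 genes (156 to 302 higher, 61 to 223 lower) with 1 library left out, and over 198 to 370 (139 to 221 higher, 59 to 149 lower) with 1 clone left out. The replicate block moved the count most: without the pairing by clone the count was 0 (0 higher and 0 lower) in edgeR (1096 with an unadjusted p under 0.05). The share of calls that were higher was 54.0% in the main comparison, 64.8% with DESeq2, 72.8% with all 25 libraries and 66.8% with 23. RLE scaling, both filters, no robust estimation and the fit with KO libraries stayed within 1.5 times, apart from the split under no filter, where 653 genes were higher and 686 lower. Of the 1162 calls, 55 were made in each of the 15 alternatives other than the one without pairing (42 higher, 13 lower), and 737 in fewer than 8 of them. No named gene that was called changed sign: over all alternatives 1290 gene values kept their side of the threshold, 594 lost the call and 5 gained one.

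The interaction of 264 h with 72 h called 3033 (1568 higher and 1465 lower), against 1700 (955 higher and 745 lower) with DESeq2, 594 (380 higher and 214 lower) without pairing by clone and 1896 to 2174 (1048 to 1184 higher, 848 to 990 lower) with 1 library left out. The interaction of genotypes called 10 (4 higher and 6 lower), against 3 (1 higher and 2 lower) with DESeq2, 118 (27 higher and 91 lower) with no filter, 0 (0 higher and 0 lower) without pairing (247 with an unadjusted p under 0.05) and 0 to 1 (0 to 1 higher, 0 to 0 lower) with 1 library left out. Leaving out libraries also leaves fewer samples, and leaving out a clone leaves no spread between cultures at 264 h to measure. The cause of the other changes was not tested. Depth limits genes near the floor of 0.104 to 0.115 CPM.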

Other observations

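Besides the genes of the lists, several others were called in all 15 alternatives that kept the pairing by clone, and are named here after their values were seen. MFSD2B, a sphingolipid exporter of red cells and platelets, rose by a log2 of 1.04. LGALS3, the lectin galectin-3, rose by 1.20, GSN, the actin-severing protein gelsolin, by 0.99, TYROBP, a signalling adaptor of myeloid receptors, by 0.94, and SELPLG, the ligand of P-selectin, by 0.70. IL2RG, the shared chain of several interleukin receptors, rose by 0.47 and ITGB7, an integrin chain of leukocytes, by 0.67. Among those that fell were DUSP5, a phosphatase of ERK kinases (log2 -0.75), ARHGAP20 (log2 -0.76), PTPN5 (log2 -0.66) and the collagen gene COL2A1 (log2 -0.49).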
